A study of Mus musculus with 4 samples.

Results

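The genes described here are 8 members of the caspase and pyroptosis machinery other than caspase-8: the caspase genes Casp1, Casp2, Casp4, Casp6 and Casp9, the pore-forming gene Gsdmd, and the adaptor genes Apaf1 and Pycard. They were taken by symbol from a table of read counts for 19044 genes in mouse regulatory T cells (Treg cells, the CD4 T cells that express the transcription factor Foxp3), and all 8 were in it. The cells came from spleen and peripheral lymph nodes, with no treatment. Of the 4 libraries, the KO-labelled pair (1 aTreg and 1 rTreg) came from Ripk1fl/fl Foxp3-YFP-Cre mice. The WT pair (1 aTreg and 1 rTreg) came from Foxp3-YFP-Cre mice. All 4 thus carry a Cre recombinase with yellow fluorescent protein driven by Foxp3, so deletion of Ripk1 is directed to Foxp3-expressing cells. The letters a and r, which are not spelled out in the labels, usually stand for activated and resting. The sources used here do not give the age, number or pooling of the mice, or the sorting gate.

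Caspases are proteases that cut their targets after aspartate and are made as inactive precursors. In the inflammatory branch, a sensor protein gathers the adaptor ASC (encoded by Pycard), which brings in caspase-1, while caspase-4 (caspase-11 in the mouse protein literature) senses bacterial lipopolysaccharide directly. Both cut gasdermin D, whose freed part opens pores in the plasma membrane, a lytic death called pyroptosis. In the mitochondrial branch of apoptosis, cytochrome c released from mitochondria makes APAF1 assemble into the apoptosome, which activates caspase-9 and through it the executioner caspases. RIPK1 and FADD, both in the title of the study, act on caspase-8, which starts a separate route.

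The libraries held 17588754 to 20868319 counts. Ripk1 itself was at 80.8 CPM (read counts relative to the library size, which was scaled by TMM) in KO-labelled aTreg and 84.7 CPM in KO-labelled rTreg, against 77.5 CPM in WT aTreg and 83.6 CPM in WT rTreg. A count over the whole gene therefore shows no loss of Ripk1 mRNA in the libraries labelled knockout, and they are called KO-labelled throughout. Foxp3 was at 619 to 694 CPM in all 4. Xist, the RNA of the inactive X chromosome, was at 0.213 and 0.284 CPM in KO-labelled aTreg and rTreg, against 338 and 299 CPM in WT aTreg and rTreg, whereas the Y-linked gene Ddx3y was at 97.5 to 126 CPM in all 4. Kdm5d, also Y-linked, was at 64.3 and 71.2 CPM in KO-labelled aTreg and rTreg, against 47.7 and 53.5 CPM in WT aTreg and rTreg. Eif2s3y, likewise Y-linked, was at 76.7 and 87.6 CPM in KO-labelled aTreg and rTreg, against 50.8 and 65.9 CPM in WT aTreg and rTreg. Uty, a further Y-linked gene, was at 19.1 to 22.3 CPM in all 4. The KO-labelled libraries thus held Y-linked RNA with hardly any Xist, and the WT libraries held both. The sex makeup of the cells and the genotype cannot be told apart. Each combination of genotype and state is 1 library, so values from 2 libraries carry a 95% counting interval in brackets and no test. In bulk libraries, more mRNA per cell and more cells with the mRNA cannot be told apart.

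Of the 8 members, 4 rose in the KO-labelled libraries and none fell: Casp1, Casp4, Apaf1 and Pycard. This is the call of edgeR's quasi-likelihood test with genotype and state as additive terms over the 4 libraries, at an adjusted p of 0.05. That test called 47.2% of the 9680 genes tested, 24.4% as higher and 22.8% as lower, so the share of members called, in either direction together, lies near that of all genes. The median genotype log2 fold change was 0.35 over the 8 members and 0.00 over all tested genes. The other 4 members, Casp2, Casp6, Casp9 and Gsdmd, had fitted log2 fold changes between 0.02 and 0.18 and did not pass. With genotype as the sole term edgeR called 2 of the members, and the same fit without KO-labelled aTreg, or without KO-labelled rTreg, called none of them and 1 gene in all (3 members had an unadjusted p under 0.05 in each). In the authors' deposited table, 3 of the 8 members, Casp1, Casp4 and Apaf1, had an adjusted p under 0.05, as 16.6% of its genes with an adjusted p did. With 1 library per combination, these p-values rest on no spread between replicate libraries. In the additive fit the spread is the departure from additive terms, on 1 residual degree of freedom. It is combined with a value shared over genes (a prior of 11.8 degrees of freedom). This need not hold the spread between mice.

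**Figure D1:**
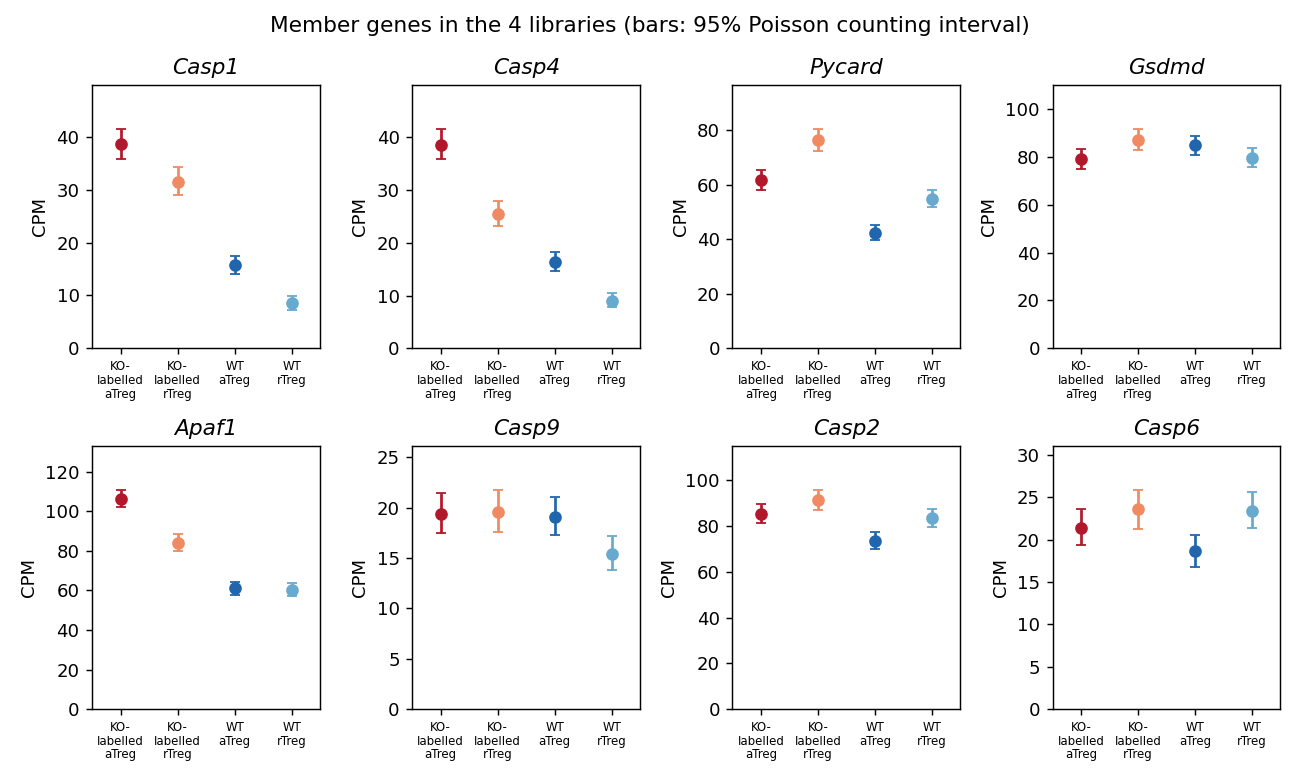
CPM (vertical axis, from 0) of each member in the KO-labelled aTreg, KO-labelled rTreg, WT aTreg and WT rTreg libraries (horizontal axis). Points are single libraries and bars are 95% Poisson counting intervals. Casp1 and Casp4 step down across the 4 libraries in that order, while Gsdmd stays between 78.9 and 87.1 CPM.

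Casp1, the protease that matures interleukin-1β and interleukin-18 and cuts gasdermin D, was among the members that differed most. It lies on GRCm38 chromosome 9, 5298517 to 5307265, plus strand, and overlaps no other annotated gene. It was at 38.6 CPM (724 counts) in KO-labelled aTreg and 31.5 CPM (554 counts) in KO-labelled rTreg, against 15.7 CPM (323 counts) in WT aTreg and 8.53 CPM (179 counts) in WT rTreg. Every step in that order was larger than counting error. The KO-labelled libraries were both above the WT libraries, and within each genotype aTreg was above rTreg. The log2 ratio of KO-labelled over WT was 1.29 [1.11 to 1.49] in aTreg and 1.87 [1.64 to 2.13] in rTreg. In the fit over all 4 libraries Casp1 rose 2.97-fold (log2 1.57, SE 0.145, edgeR adjusted p = 2.99e-06), above the fold change of 98.7% of tested genes. Its edgeR adjusted p with genotype as the sole term was 0.0322, at a log2 fold change of 1.53.

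Casp4, the caspase that binds lipopolysaccharide in the cytosol, lies next to Casp1 on the same strand (chromosome 9, 5308828 to 5336783), with 1562 bases between the annotated genes. It was at 38.6 CPM (725 counts) in KO-labelled aTreg and 25.5 CPM (449 counts) in KO-labelled rTreg, against 16.4 CPM (338 counts) in WT aTreg and 9.05 CPM (190 counts) in WT rTreg. The order of the libraries was that of Casp1, and again every step exceeded counting error. The log2 ratio of KO-labelled over WT was 1.23 [1.05 to 1.43] in aTreg and 1.48 [1.25 to 1.75] in rTreg. The fit gave a 2.56-fold rise (log2 1.35, SE 0.127, edgeR adjusted p = 3.43e-06). With genotype as the sole term the edgeR adjusted p of Casp4 was 0.0559, above the threshold of 0.05, at a log2 fold change of 1.33. Over all 10 alternatives its adjusted p from edgeR or DESeq2 ran from 7.16e-24 to 0.246.

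Casp1 and Casp4 were the members at least 2-fold apart between genotypes, both in aTreg, where 6.12% of tested genes were, and in rTreg, where 4.75% were. Per kilobase of annotated exon, the level of Casp4 was 0.404 and 0.327 times that of Casp1 in KO-labelled aTreg and rTreg, against 0.422 and 0.428 in WT aTreg and rTreg. The ratio of these neighbours thus moved far less than the level of either. The size of the ratio depends on the lengths used, 3710 exon bases for Casp4 and 1497 for Casp1. Before that division their counts in KO-labelled aTreg were alike, at 725 and 724. The next gene downstream on the same strand, Casp12 (5345430 to 5373032), another inflammatory caspase, had 1 count in KO-labelled aTreg and 0 in the other libraries. A count of 0 allows up to 3 counts, or 0.143 to 0.17 CPM here. Casp1 and Casp4 are related in sequence, and reads that fit both could have been dropped or exchanged in counting.

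The bases before the annotated starts of both neighbours are shown because these genes stand side by side and differed most between genotypes. They come from RefSeq on GRCm38.p6, plus strand, at chr9:5298267-5298516 for Casp1 and chr9:5308599-5308848 for the first of 2 listed Casp4 starts, and GENCODE places the Casp4 start slightly earlier, inside the stretch shown. Capitals mark matches, on either strand, to GGG, any 2 bases, then TTTCC, a pattern like the site of NF-kappaB that was added after the sequence had been read.
Casp1: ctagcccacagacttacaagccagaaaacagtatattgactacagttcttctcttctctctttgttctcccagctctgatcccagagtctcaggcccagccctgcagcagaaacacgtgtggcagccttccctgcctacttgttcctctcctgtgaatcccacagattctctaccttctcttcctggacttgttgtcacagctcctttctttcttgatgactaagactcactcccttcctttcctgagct
Casp4: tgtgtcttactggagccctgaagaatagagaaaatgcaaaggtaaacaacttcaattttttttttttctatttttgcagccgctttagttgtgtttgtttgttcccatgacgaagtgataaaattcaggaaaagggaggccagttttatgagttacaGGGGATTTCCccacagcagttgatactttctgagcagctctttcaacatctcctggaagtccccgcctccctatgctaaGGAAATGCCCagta
Casp4 holds this pattern 93 and 14 bases before the first listed RefSeq start. The nearer match lies after the GENCODE start. Of the 32851 RefSeq promoters of 300 bases (250 before to 50 after a start), 1.63% hold it. No other member with a listed promoter does. The interferon-type patterns TTCNNNGAA (8.3% of promoters) and GAAA, any 2 bases, then GAAA (3.44%), searched on both strands, were in none of the promoters of the 7 listed members, Gsdmd having no entry. The E2F-type pattern, TTTCCCGC or TTTGGCGC (1.56% of promoters), was found once among them, 97 bases before the start of Casp2. These are matches of letters in a short window and say nothing of binding.

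Pycard encodes ASC, the adaptor that links sensors to caspase-1, and lies on chromosome 7 (127989708 to 127993867, minus strand). It was at 61.5 CPM (1154 counts) in KO-labelled aTreg and 76.2 CPM (1342 counts) in KO-labelled rTreg, against 42.4 CPM (873 counts) in WT aTreg and 54.8 CPM (1149 counts) in WT rTreg. Both KO-labelled libraries lay above both WT libraries, but here aTreg lay below rTreg within each genotype. The log2 ratio of KO-labelled over WT was 0.54 [0.41 to 0.67] in aTreg and 0.48 [0.36 to 0.59] in rTreg. Pycard rose 1.42-fold in the fit (log2 0.51, SE 0.0752, edgeR adjusted p = 0.000136). With genotype as the sole term its edgeR adjusted p was 0.101 (adjusted p of 2.2e-08 to 0.345 over the 10 alternatives), and in the authors' deposited table, whose fold changes run WT over KO, it was 0.067 at a log2 fold change of −0.506.

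Gsdmd, the substrate through which these caspases open membrane pores, lies on chromosome 15 (75862327 to 75867408, plus strand). It was at 78.9 CPM (1481 counts) in KO-labelled aTreg and 87.1 CPM (1535 counts) in KO-labelled rTreg, against 84.7 CPM (1744 counts) in WT aTreg and 79.5 CPM (1668 counts) in WT rTreg. The genotypes overlapped, and no step between neighbouring libraries in this order of levels exceeded counting error. The genotype log2 ratio was −0.10 [−0.20 to −0.0009] in aTreg and 0.13 [0.03 to 0.23] in rTreg, and the fitted log2 fold change was 0.02 (SE 0.0746, edgeR adjusted p = 0.882). Per kilobase of the union of annotated exons Gsdmd had the highest mean level of the 8 members, 34.7 CPM per kilobase. Casp1 was at 15.7, Pycard at 15.4 and Casp4 at 6.04. For Pycard this union holds 3800 bases of a gene that runs from 127989708 to 127993867. A shorter length for the mRNA would raise its level, so the ranking depends on the lengths used. Casp1 per kilobase was 0.776 and 0.573 times Gsdmd in KO-labelled aTreg and rTreg, against 0.294 and 0.17 in WT aTreg and rTreg. With these lengths, protease and substrate mRNA were thus nearer to each other in the KO-labelled libraries.

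**Figure D2:**
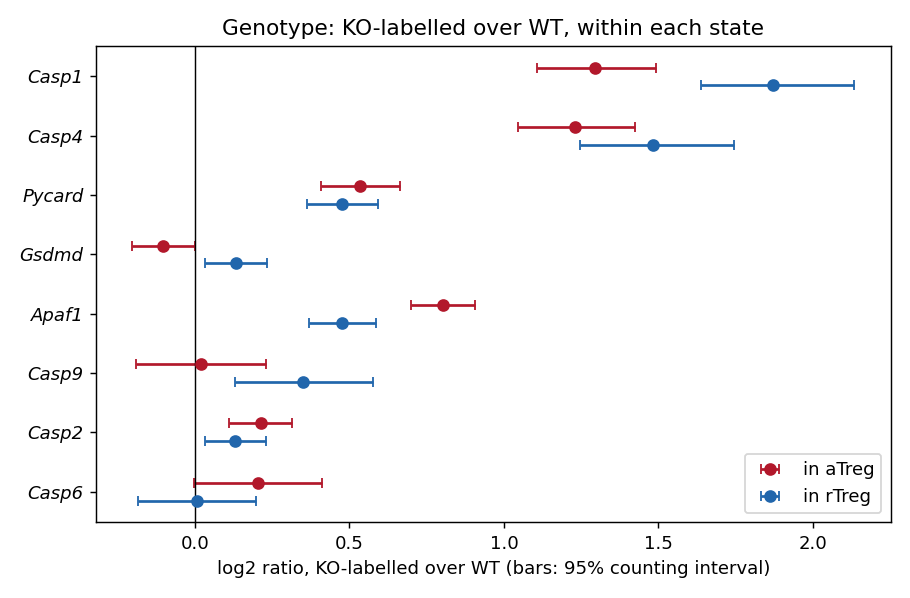
Log2 ratio of KO-labelled over WT (horizontal axis) for each member, in aTreg (upper point) and rTreg (lower point), with 95% counting intervals. Casp1 and Casp4 lie beyond 1 in both states, Pycard and Apaf1 lie between 0.48 and 0.80, and Gsdmd lies on opposite sides of 0.

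Among the apoptotic members, Apaf1 alone passed the test. It encodes the scaffold of the apoptosome and lies on chromosome 10 (90989311 to 91082770, minus strand). Apaf1 was at 106 CPM (1998 counts) in KO-labelled aTreg and 84.0 CPM (1480 counts) in KO-labelled rTreg, against 61.0 CPM (1257 counts) in WT aTreg and 60.4 CPM (1267 counts) in WT rTreg. The WT libraries did not differ beyond counting error, and both KO-labelled libraries lay above them, aTreg highest. The log2 ratio was 0.80 [0.70 to 0.91] in aTreg and 0.48 [0.37 to 0.59] in rTreg, and the fit gave a 1.56-fold rise (log2 0.64, SE 0.082, edgeR adjusted p = 4.05e-05). For Apaf1 the edgeR adjusted p with genotype as the sole term was 0.0334, at a log2 fold change of 0.65. The difference of its genotype ratio between states, 0.33 [0.18 to 0.47] as aTreg minus rTreg, exceeded counting error but has no test with 1 library each.

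Casp9, the initiator caspase that APAF1 activates, lies on chromosome 4 (141793612 to 141815976, plus strand). It was at 19.4 CPM (364 counts) in KO-labelled aTreg and 19.6 CPM (346 counts) in KO-labelled rTreg, against 19.1 CPM (394 counts) in WT aTreg and 15.4 CPM (323 counts) in WT rTreg. WT rTreg alone stood below the rest, and the other 3 libraries did not differ from their neighbours beyond counting error. The genotype log2 ratio was 0.02 [−0.19 to 0.23] in aTreg and 0.35 [0.13 to 0.58] in rTreg, with a fitted value of 0.18 (SE 0.137, edgeR adjusted p = 0.292). The annotated Casp9 gene overlaps Cela2a and Ctrc on the opposite strand, and the sources used here do not say whether counting used the strand. Per kilobase the level of Apaf1 was 3.16 and 2.46 times that of Casp9 in KO-labelled aTreg and rTreg, against 1.84 and 2.26 times in WT aTreg and rTreg. The size of this ratio also depends on the lengths used, 9028 exon bases for Apaf1 and 5197 for Casp9.

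Casp2, which responds to DNA damage and surplus centrosomes through a platform of its own, lies on chromosome 6 (42264985 to 42282508, plus strand). It was at 85.5 CPM (1604 counts) in KO-labelled aTreg and 91.4 CPM (1610 counts) in KO-labelled rTreg, against 73.7 CPM (1518 counts) in WT aTreg and 83.5 CPM (1752 counts) in WT rTreg. KO-labelled libraries were above WT by a narrow margin, KO-labelled aTreg and WT rTreg not differing beyond counting error. The log2 ratios were 0.21 [0.11 to 0.32] in aTreg and 0.13 [0.03 to 0.23] in rTreg, and the fitted 0.17 did not pass (SE 0.0678, edgeR adjusted p = 0.0528). Casp6, a caspase of the executioner group that cuts lamin A (chromosome 3, 129901425 to 129914103, plus strand), was at 21.4 CPM in KO-labelled aTreg and 23.6 CPM in KO-labelled rTreg, against 18.6 CPM in WT aTreg and 23.4 CPM in WT rTreg. Its genotypes overlapped and no step between neighbours exceeded counting error (fitted log2 0.10, SE 0.122, edgeR adjusted p = 0.509). Over the 8 members the genotypes did not overlap for 6, and over all tested genes they did not for 65.1%.

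Between states the members went both ways. Casp1 and Casp4 rose and Pycard fell in aTreg relative to rTreg, so 3 of the 8 were called, where edgeR's additive test called 13.4% of all tested genes (7.91% higher, 5.44% lower). The state log2 ratio of Casp1 was 0.29 [0.13 to 0.46] in the KO-labelled pair and 0.87 [0.61 to 1.15] in the WT pair, with a fitted log2 fold change of 0.55 (SE 0.143, edgeR adjusted p = 0.0238). For Casp4 the ratios were 0.60 [0.43 to 0.77] in the KO-labelled pair and 0.85 [0.60 to 1.12] in the WT pair, with a fitted 0.71 (SE 0.126, edgeR adjusted p = 0.00232). Pycard had ratios of −0.31 [−0.42 to −0.19] in the KO-labelled pair and −0.37 [−0.50 to −0.24] in the WT pair, with a fitted −0.34 (SE 0.0752, edgeR adjusted p = 0.00959).

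The other members did not pass for state. Apaf1 was higher in aTreg in the KO-labelled pair (0.34 [0.24 to 0.44]) and at 0.02 [−0.10 to 0.13] in the WT pair. Casp6 was at −0.14 [−0.34 to 0.06] in the KO-labelled pair and −0.33 [−0.53 to −0.14] in the WT pair. Fitted values of Casp2, Casp6, Casp9, Gsdmd and Apaf1 ran from −0.24 to 0.18. Over the 8 members the states did not overlap for 1, Casp6, and over all tested genes they did not for 27%. The median state log2 fold change was 0.06 over the 8 members and 0.00 over all tested genes. DESeq2 with the same terms called 1 of the members for state, Casp4. With state as the sole term edgeR called no member and no gene at all, and at an unadjusted p under 0.05 there were 0 members and 328 genes.

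**Figure D3:**
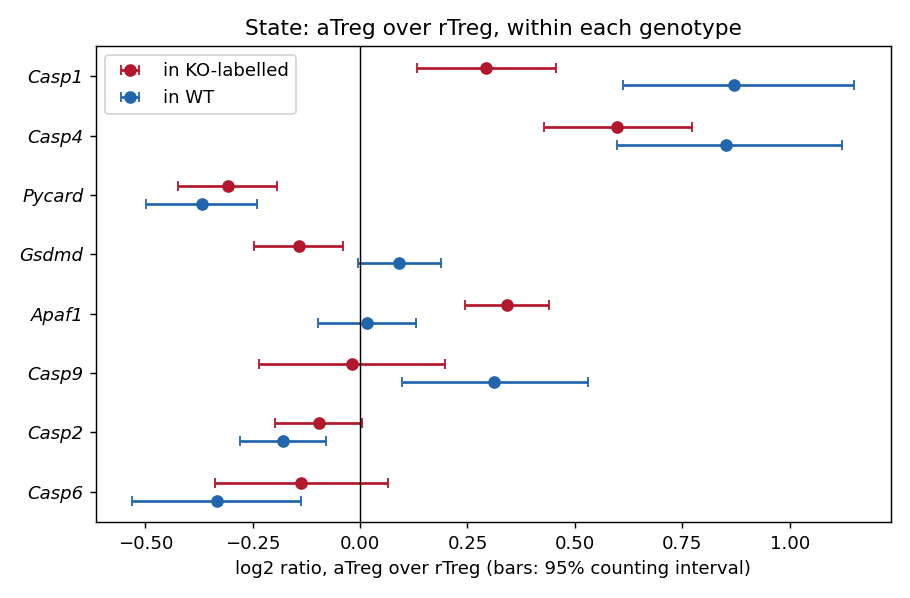
Log2 ratio of aTreg over rTreg (horizontal axis) for each member, in the KO-labelled pair (upper point) and the WT pair (lower point), with 95% counting intervals. Casp1 and Casp4 lie to the right of 0 in both pairs, Pycard to the left in both, and Apaf1 to the right in the KO-labelled pair.

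The genes around the members were read from lists by role, and a gene was tested where it passed the level minimum of a mean of 5 CPM. Casp8, the initiator on which FADD acts, was at 194 and 253 CPM in KO-labelled aTreg and rTreg, against 199 and 239 CPM in WT aTreg and rTreg (log2 0.03, SE 0.0675, edgeR adjusted p = 0.783). Fadd rose (log2 0.77, SE 0.159, edgeR adjusted p = 0.00152). Gsdme, another gasdermin gene, was below the minimum at 3.04 to 3.35 CPM.

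Of 20 inflammasome sensors, partners and substrates, 17 were in the table and 9 were tested. Of these 9, 5 fell in the KO-labelled libraries and none rose, with a median log2 fold change of −0.34. The same test called 22.8% of all tested genes as lower and 24.4% as higher. Naip5, a sensor of bacterial flagellin, was at 9.22 and 4.31 CPM in KO-labelled aTreg and rTreg, against 29.4 and 8.48 CPM in WT aTreg and rTreg (log2 −1.39, SE 0.191, edgeR adjusted p = 7.37e-05). Naip6, its relative, was at −0.73 (edgeR adjusted p = 0.00953), and Ninj1, which ruptures the membrane of dying cells, at −0.63 (edgeR adjusted p = 0.00788). The Naip6 log2 ratio of KO-labelled over WT was −1.15 [−1.38 to −0.94] in aTreg. In rTreg it was −0.19 [−0.50 to 0.12], within counting error. P2rx7, the ATP-gated channel, and Txnip were the other genes that fell. Naip2, Naip5 and Naip6 resemble each other in sequence, and counting may have moved reads from one to another. For state, 5 of the 9 rose in aTreg (Naip2, Naip5, Naip6, Aim2 and P2rx7) and 1, Txnip, fell. Over all tested genes, 7.91% were called higher and 5.44% lower for state. The cytosolic DNA sensor gene Aim2 was at 57.1 and 47.8 CPM in KO-labelled aTreg and rTreg, against 64.5 and 52.8 CPM in WT aTreg and rTreg, and did not pass for genotype (edgeR adjusted p = 0.103). Nlrp3, the most studied sensor, had 1 count in KO-labelled aTreg and 0 in the other libraries. Il1b had 8 and 6 counts in KO-labelled aTreg and rTreg, against 4 and 3 in WT aTreg and rTreg, and Il18 had 14 and 12 counts in KO-labelled aTreg and rTreg, against 11 and 5 in WT aTreg and rTreg. These substrate mRNAs of caspase-1 thus had at most 14 counts in any library.

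Around the apoptosome, 1 of 9 tested genes rose and 3 fell, with a median of −0.03. In either direction together, that share lies near the 47.2% called over all tested genes. Cycs, which encodes cytochrome c, rose (log2 0.50, SE 0.0834, edgeR adjusted p = 0.000358). Diablo, which encodes an antagonist of the inhibitors of apoptosis, fell (−0.60, edgeR adjusted p = 0.0199), as did Birc6 (−0.42, edgeR adjusted p = 0.000285), a giant inhibitor of apoptosis, and Htra2 (−0.42). Xiap, the inhibitor that binds caspase-9 directly, did not pass (−0.12, edgeR adjusted p = 0.153). Of the 4 genes listed around caspase-2, 3 rose and none fell, where 24.4% of all tested genes rose and 22.8% fell. Pidd1 encodes the scaffold of the caspase-2 platform. It was at 44.1 and 36.7 CPM in KO-labelled aTreg and rTreg, against 25.2 and 20.5 CPM in WT aTreg and rTreg (log2 0.82, SE 0.102, edgeR adjusted p = 3.33e-05). Bid, which encodes a BH3-only protein cut by caspases, rose (0.49, edgeR adjusted p = 0.00174), as did Mdm2 (0.20, edgeR adjusted p = 0.0325), while Cradd, the adaptor between PIDD1 and caspase-2, did not pass (0.23, edgeR adjusted p = 0.226). No gene of either list was called for state, where 13.4% of all tested genes were.

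Of 11 caspase substrates of cell dismantling, 3 rose and 1 fell, with a median of 0.15. Over all tested genes 24.4% rose and 22.8% fell. Lmnb1, a nuclear lamin gene, was at 331 and 306 CPM in KO-labelled aTreg and rTreg, against 117 and 140 CPM in WT aTreg and rTreg (log2 1.32, SE 0.0852, edgeR adjusted p = 2.07e-07). Xkr8, the scramblase that exposes phosphatidylserine, rose (0.61, edgeR adjusted p = 0.0422), as did Panx1 (0.34, edgeR adjusted p = 0.00095), a channel opened by caspases, and Acin1 fell (−0.38, edgeR adjusted p = 0.000507). Of 7 transcription factor genes of the interferon, E2F and p53 pathways, 6 were tested and 5 rose, with a median of 0.66. Among all tested genes 24.4% rose. E2f1, an activator of Apaf1 in other cells, was at 41.5 and 38.8 CPM in KO-labelled aTreg and rTreg, against 11.0 and 14.1 CPM in WT aTreg and rTreg (log2 1.68, SE 0.13, edgeR adjusted p = 7e-07). Irf8 rose too (1.33, edgeR adjusted p = 3.91e-07), and Trp53, also known to act on Apaf1, did not pass (0.04, edgeR adjusted p = 0.691). For state, Irf8 rose in aTreg and Irf1 fell.

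Casp1, Pycard and Gsdmd are also abundant in myeloid cells, so markers of other cells were read beside them. All 8 monocyte and macrophage markers were in the table, and 1, Cd68, passed the level minimum. Their summed level was 16.3 and 19.5 CPM in KO-labelled aTreg and rTreg, against 15.2 and 15.6 CPM in WT aTreg and rTreg. Cd68, at 12.2 to 14.4 CPM, made up most of it, and the defining genes Csf1r, Adgre1 and Lyz2 were at or under 0.64 CPM in every library. Itgam, also on that list, was at 2.03 and 2.78 CPM in KO-labelled aTreg and rTreg, against 0.291 and 0.715 CPM in WT aTreg and rTreg, and was thus higher in both KO-labelled libraries. The 7 neutrophil markers summed to 1.39 and 3.46 CPM in KO-labelled aTreg and rTreg, against 0.534 and 0.0476 CPM in WT aTreg and rTreg. Of 6 dendritic cell markers 4 were in the table, summing to 5.38 and 3.12 CPM in KO-labelled aTreg and rTreg, against 3.01 and 0.953 CPM in WT aTreg and rTreg, Zbtb46 being highest in each library. Itgax of that list was at 1.33 and 0.852 CPM in KO-labelled aTreg and rTreg, against 0 and 0.0953 CPM in WT aTreg and rTreg.

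The 6 B cell markers summed to 13.9 to 24.5 CPM, Cd79b at 8.77 to 14.1 CPM, with Ms4a1 at or under 0.194 CPM. Natural killer markers (2 of 4 in the table) summed to 7.35 and 7.27 CPM in KO-labelled aTreg and rTreg, against 2.91 and 2.19 CPM in WT aTreg and rTreg. Of that pair, Eomes was at 5.97 and 6.98 CPM in KO-labelled aTreg and rTreg, against 0.583 and 1.57 CPM in WT aTreg and rTreg, while Klrb1c was lower within each state, at 1.39 and 0.284 CPM in KO-labelled aTreg and rTreg, against 2.33 and 0.619 CPM in WT aTreg and rTreg. The 3 erythroid markers summed to 10.3 and 9.2 CPM in KO-labelled aTreg and rTreg, against 1.6 and 0.619 CPM in WT aTreg and rTreg, and Hba-a1 led in the KO-labelled libraries and Alas2 in the WT libraries. The 2 platelet markers summed to 2.77 and 1.7 CPM in KO-labelled aTreg and rTreg, against 0.146 and 0.238 CPM in WT aTreg and rTreg, and Pf4 led in the KO-labelled libraries and Ppbp in the WT libraries. Both CD8 T cell markers together were at 7.82 to 12.9 CPM, nearly all Cd8b1. The sums of the monocyte, neutrophil, dendritic cell, natural killer, erythroid and platelet lists were thus higher in both KO-labelled libraries than in both WT libraries, as Casp1, Casp4, Apaf1 and Pycard were, and their part in those differences was not tested.

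By the distance between centred log2 CPM profiles over the 4 libraries, the genes most like Casp1 among 9305 named genes were Cysltr2 (distance 0.155), Glrx (0.226) and Cd74 (0.271). Those most like Casp4 were Snx9 (0.114), Adap1 (0.122) and Myo1f (0.14). Casp4 was the fifth nearest to Casp1, at 0.312 log2 units. Cysltr2, a leukotriene receptor gene, was at 16.2 and 12.0 CPM in KO-labelled aTreg and rTreg, against 6.7 and 3.19 CPM in WT aTreg and rTreg. A profile over 4 libraries is a short one, and how many genes share it was not counted.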

How the data were processed

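Messenger RNA of Treg cells was sequenced in 4 libraries, 1 for each combination of genotype and state. The submitters' processing notes name HISAT2 2.2.1, featureCounts 2.0.1 and the build GRCm38. The annotation and strand setting are not stated in those notes or in the file headers. The deposited count table holds whole counts, not normalized. A second deposited table holds the authors' variance-stabilised values on a log2-like scale and their log2 fold changes, WT over KO. Its mean of scaled counts is a deposited signal, its test statistic a deposited score, and its p-values are those of the authors' genotype comparison.

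From the counts, genes averaging 5 CPM or more were kept (9680 genes, 99.31% of counts, all 8 members). edgeR 4.0.16 in R 4.3.3 was fitted with TMM scaling and genotype and state as additive terms, leaving 1 residual degree of freedom beside a prior of 11.8. p-values were adjusted over all tested genes (Benjamini-Hochberg). The fit was tested on simulated counts with a fixed spread and no state or sex difference. That cannot show how its p-values hold without replicate libraries. Ratios of 2 libraries use a prior count of 2, without which the 95% exact binomial intervals and the steps between neighbouring levels were computed. Intervals cover counting error only. Levels per kilobase use the union of GENCODE vM21 exons. DESeq2 1.42.0, other scalings and filters, single-term fits and single-term fits without each library were the alternatives. Named were all members, the 3 genes per list with the largest genotype change, a few single genes (Casp8, Fadd, Ripk1), and the 3 profiles nearest to each of the 2 members with the widest range. Other list genes, among them Aim2, Nlrp3, Il1b, Xiap, P2rx7, Mdm2 and Panx1, were named after their values were seen. The members, lists and tests were chosen with earlier results of these data known. Results for some list genes are not reported here.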

Additional observations from a re-analysis of the deposited data

Results flagged for a closer look

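Gsdmd stood out because its genotype ratio took opposite signs in the states, −0.10 in aTreg and 0.13 in rTreg, a difference of −0.23 [−0.38 to −0.09] on the log2 scale. The same 4 counts give opposite state ratios, −0.14 in the KO-labelled pair and 0.09 in the WT pair, which differ by the same −0.23. Casp9 stood out because its state ratio was −0.02 in the KO-labelled pair and 0.31 in the WT pair, a difference of −0.33 [−0.63 to −0.03]. With 1 library of each kind none of these differences was tested, and the brackets cover counting error only. Casp1, whose genotype ratio had 1 sign in both states, differed by −0.58 [−0.89 to −0.28] as aTreg minus rTreg, also untested.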

How the results depend on the processing

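For genotype, 4 members were called in the additive edgeR fit, with DESeq2, under both other scalings and under both other filters. With genotype as the sole term edgeR called 2, Casp1 and Apaf1. In single-term fits that left out 1 library each, between 0 and 4 were called. It was 0 without KO-labelled aTreg and 0 without KO-labelled rTreg, where 1 gene in all was called, 3 without WT aTreg and 4 without WT rTreg; the lone library of an arm is there assumed to vary like the pair of the other. Across these, the log2 fold change ran from 1.16 to 2.04 for Casp1, 0.97 to 1.83 for Casp4, 0.47 to 0.81 for Apaf1 and 0.33 to 0.70 for Pycard. For state, 3 members were called in the additive edgeR fit, 1 with DESeq2, 0 with state as the sole term and 0 without each library in turn (range 0 to 0; 0 to 2 members at an unadjusted p under 0.05). Without KO-labelled aTreg the state change of Casp1 turned to −0.35 and that of Casp4 to −0.070, and without WT rTreg that of Casp1 turned to −0.21; in these fits genotype is unbalanced between the states by construction. Over all genes, 4573 were called for genotype in the additive edgeR fit, 2527 with DESeq2 and 1626 with the sole term (1 to 1304 without a library), and 1293, 423 and 0 for state. Differences of the authors' deposited variance-stabilised values, on their log2-like scale, lay outside the counting interval for 5 genotype ratios and 3 state ratios. All were of Casp1, Casp4 or Apaf1 and all were nearer to 0. The authors' deposited log2 fold changes, WT over KO, were −1.54 for Casp1, −1.34 for Casp4 and −0.654 for Apaf1. In the additive edgeR fit, as KO-labelled over WT, they were 1.57, 1.35 and 0.64. Each combination has 1 library and the labels carry no replicate numbers, so the additive terms were the only matching of libraries. Depth limits the sensors and cytokines under 5 CPM, which were not tested.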
